A study of Mus musculus with 7 samples.

Results

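The genes described here encode nuclear subunits of the respiratory chain and of ATP synthase, with 7 assembly factors of complex I that share the Nduf name. Members were chosen by symbol: names that begin with Nduf, Uqcr, Atp5 or Cox4 to Cox8, together with the 4 Sdh subunit genes, Cyc1 and Cycs. Cox7a1 and Cox8b were left out because they were already known to have fallen, and they are given separately. The set held 88 of the 18820 genes that had a symbol of their own on the array. It comprised 36 genes with complex I subunit names, 7 complex I assembly factors, 4 genes of complex II, 8 of complex III, cytochrome c, 15 of complex IV and 17 of ATP synthase. The 13 mitochondrially encoded subunits were not analysed here.

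The cells were 3T3-L1, an established mouse pre-adipocyte line, on day 7 of fat cell differentiation. They were induced over 2 days with a mixture of dexamethasone, isobutylmethylxanthine and insulin, and then kept in insulin. In 3 samples an unnamed inhibitor of stearoyl-CoA desaturase (SCD), the enzyme that desaturates fatty acids, was present at 1 µM throughout, and 4 samples received only DMSO, its solvent. Each sample was read on 1 Affymetrix whole-transcript array, and levels are deposited log2 values between 2.32 and 13.25. The labels name no separate cultures, so p-values measure the spread between these arrays, which may be technical. Both arrays numbered 1 stood apart from their groups on the second principal component, at 8.00 for SCD inhibitor 1 and 6.85 for DMSO 1, while the other 5 lay between -4.14 and -0.86.

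Complexes I to IV pass electrons from NADH and succinate to oxygen and build a proton gradient across the inner mitochondrial membrane, which ATP synthase uses to make ATP. Some subunits of complex IV, cytochrome c oxidase, exist as a widely expressed isoform and one typical of heart and skeletal muscle, and the muscle forms Cox7a1 and Cox8b are also known from brown fat. Mitochondrial content rises as pre-adipocytes become fat cells.

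With the SCD inhibitor, few of these genes passed the test, and most differences were small. In limma's fit over all genes, with Benjamini-Hochberg adjusted p under 0.05 as the threshold, 4 of 88 passed (4.55%), beside 8.00% of all genes. Atp5e was higher (1 of 88, beside 3.62% of all genes), and Cox6a2, Cox6a1 and Ndufb9 were lower (3 of 88, beside 4.37%). The median difference, inhibitor minus DMSO, was -0.0123 on the log2 scale over the 88 genes and -0.0037 over all genes. Cox7a1 and Cox8b had been left out for their known fall, so the member shares here and below are low in part by choice. With both put back, 1 of 90 genes was higher and 5 were lower, with a median of -0.0149. When both arrays numbered 1 were left out, a fit added after the data were seen, 0 of 88 passed in limma and 17 had an unadjusted p under 0.05.

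The inhibitor arrays lay wholly above the DMSO arrays for 4 members, beside 8.30% of all genes, and wholly below them for 9, beside 9.02%. Together these were 14.8% of members and 17.3% of all genes. At an unadjusted p under 0.05 there were 7 higher members, beside 10.9% of all genes, and 10 lower, beside 11.0%. The 17 made up 19.3% of members, against 21.9% of all genes.

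Of the 88 genes 83 lay in the brighter 50% of all genes, where calls were more frequent. There, 4 of 83 members (4.82%) passed, against 14.9% of 9410 genes in the same fit and 21.1% when the dimmer genes were dropped before the fit. The groups did not overlap for 15.7% of these members and for 30.8% of the brighter genes. A difference beyond 1.25-fold was seen in 1 of 88 members, against 4.94% of all genes and 8.79% of the brighter ones. The left-out genes Cox7a1 and Cox8b also lay beyond 1.25-fold and are not counted among these members. The median absolute difference was 0.06 over the 88 genes, 0.05 over all genes and 0.08 over the brighter genes. The median standard error (SE) was 0.043 over the 88 genes, 0.0393 over all genes and 0.0445 over the brighter ones. These shares describe the set and do not test it against other genes.

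**Figure D1:**
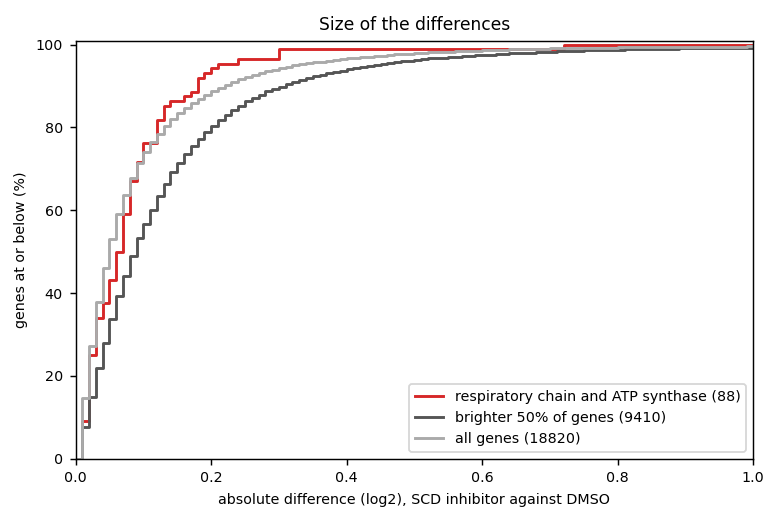
Share of genes (%, y axis) whose absolute log2 difference between SCD inhibitor and DMSO arrays is at or below the value on the x axis, for the 88 respiratory chain and ATP synthase genes, the brighter 50% of genes and all genes. The curve of the 88 genes lies above that of the brighter genes over most of the range, and 1 of the 88 lies beyond 0.32.

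The intervals show which sizes of change these arrays leave possible. For 78 of the 88 genes (88.6%) the 95% confidence interval lay within 1.25-fold in both directions, which is 0.32 on the log2 scale. The same held for 86% of all genes and 76.7% of the brighter ones, so the members lay near the share of all genes. These included all 4 genes of complex II, all 8 of complex III and cytochrome c. They also included 30 of 36 complex I subunits, 6 of 7 assembly factors, 14 of 15 complex IV genes and 15 of 17 ATP synthase genes. A miss of the threshold does not show that a gene was unaffected. Some deposited values repeat across arrays. Ndufv1 read 11.221 and Atp5o 10.645 on all 3 inhibitor arrays, each with an SD of 0, and the same again on DMSO 2. Such repeats lower the measured spread, and their effect on the intervals and differences was not tested.

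**Figure D2:**
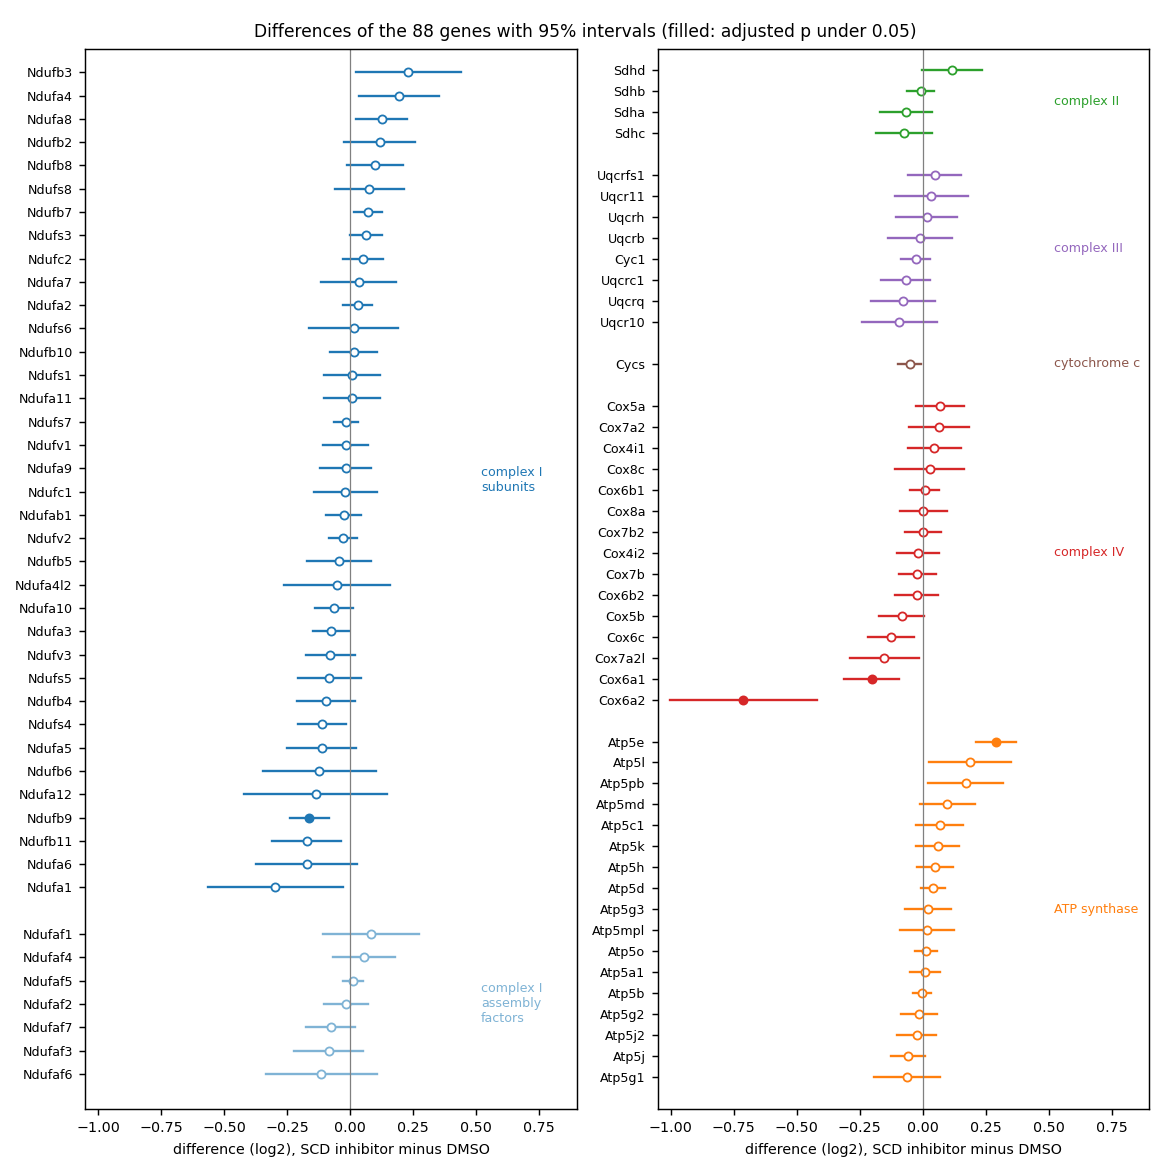
Difference in log2 level (x axis), SCD inhibitor (3 arrays) minus DMSO (4 arrays), with its 95% interval from limma, for each of the 88 genes by complex; filled points passed an adjusted p of 0.05. Cox6a2 lies at -0.71, the others between -0.30 and 0.29, and the other filled points are Cox6a1, Ndufb9 and Atp5e.

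Cox6a2, the heart and muscle isoform of subunit VIa of cytochrome c oxidase, had the largest difference of the 88 (Entrez 12862, chromosome 7, 128205435 to 128206366 in GRCm38.p6). Its level was 6.29, 6.02 and 6.41 with the inhibitor, against 7.10, 6.91, 7.07 and 6.73 in DMSO. All 3 inhibitor arrays lay below the lowest DMSO array. Cox6a2 was 1.64-fold lower, a log2 difference of -0.71 (SE 0.122, adjusted p = 0.0163 in limma, 3 arrays against 4). The call held without DMSO 4 and without SCD inhibitor 3, and ended without any 1 of the other 5 arrays, at adjusted p between 0.0506 and 0.0585 in limma.

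The RefSeq span of Itgad, a leukocyte integrin subunit, overlaps that of Cox6a2 (Entrez 381924, chromosome 7, 128173933 to 128205504). Itgad read 5.25, 5.40 and 5.78 with the inhibitor, against 4.78, 4.63, 5.03 and 4.94 in DMSO, and the groups did not overlap. Its log2 difference of 0.63 (SE 0.148) did not pass, with an adjusted p of 0.0515 in limma, and ran in the direction opposite to that of Cox6a2.

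Cox6a1, the widely expressed isoform of subunit VIa, fell by a smaller amount (Entrez 12861, chromosome 5, 115345652 to 115348958). It read 10.40, 10.40 and 10.32 with the inhibitor, against 10.47, 10.66, 10.57 and 10.60 in DMSO. Its groups were apart, and DMSO 1 lay nearest to the inhibitor arrays. The log2 difference was -0.20 (SE 0.0463, adjusted p = 0.0468 in limma). Without 1 array the call held only without DMSO 1 (adjusted p = 0.0205), and the 6 other such fits gave 0.0907 to 0.154. A second, dimmer row with this symbol differed by -0.01, and the mean of both rows did not pass (adjusted p = 0.406).

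By the rows that stood for them, both VIa isoforms were thus lower, by different amounts, while the second Cox6a1 row differed by only -0.01. Within each array, Cox6a2 minus Cox6a1 ran from -4.37 to -3.91 on the log2 scale with the inhibitor and from -3.87 to -3.37 in DMSO, a shift of -0.51. An exact two-sided permutation test gave p = 0.0571, the smallest that 3 arrays against 4 allow. The members were picked with earlier results known, so this value is not independent evidence.

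Cox7a1 (Entrez 12865, chromosome 7, 30184171 to 30186030) and Cox8b (Entrez 12869, chromosome 7, 140898942 to 140900446), both heart and muscle isoforms of oxidase subunits, are the genes left out for their known decrease. Cox7a1 read 7.55, 7.71 and 7.32 with the inhibitor, against 8.41, 8.21, 8.53 and 8.48 in DMSO. Cox8b read 9.72, 9.74 and 9.58 with the inhibitor, against 10.77, 10.41, 10.73 and 10.58 in DMSO. Every inhibitor array lay below every DMSO array for both genes. The log2 differences were -0.88 (SE 0.109) for Cox7a1 and -0.94 (SE 0.0917) for Cox8b. Cox6a2, Cox7a1 and Cox8b all map to chromosome 7, at separate places along it. Of the 6 members on that chromosome, Cox6a2 alone passed. Cox6b1, which starts at 30616971, differed by 0.01 and did not pass. Cox6b2, Ndufa3, Ndufab1 and Ndufc2 differed by -0.02, -0.08, -0.02 and 0.05 and did not pass either. A part of position in these differences was not tested.

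The widely expressed partners of Cox7a1 and Cox8b did not pass. Cox7a2 averaged 10.51 ± 0.0124 (SD, n = 3) with the inhibitor and 10.44 ± 0.0933 (SD, n = 4) in DMSO. Cox8a averaged 12.03 ± 0.0811 (SD, n = 3) with the inhibitor and 12.03 ± 0.0288 (SD, n = 4) in DMSO. Their 95% intervals on the log2 scale ran from -0.05 to 0.19 for Cox7a2 and from -0.09 to 0.10 for Cox8a, and the groups overlapped in both. The within-array shift was -0.94 for Cox7a1 minus Cox7a2 and -0.95 for Cox8b minus Cox8a.

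**Figure D3:**
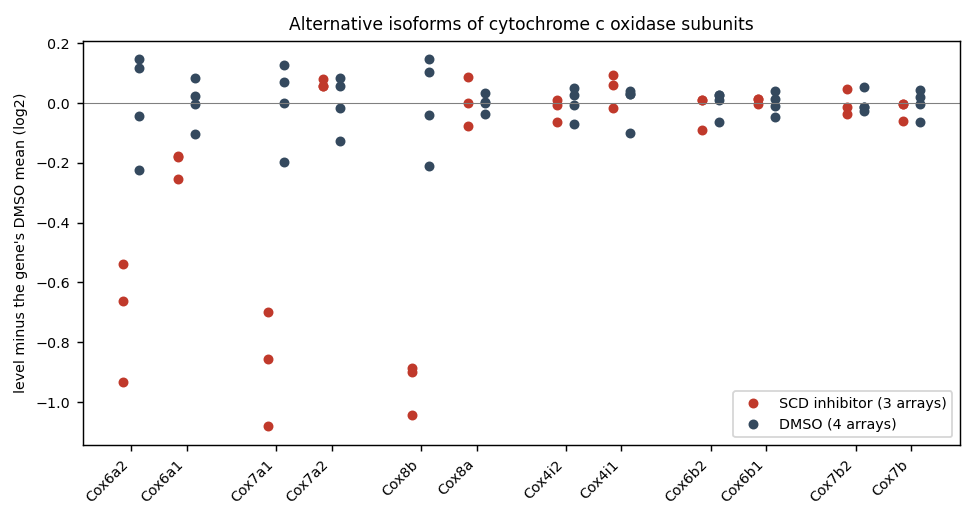
Level of each isoform on each array minus the gene's mean over the DMSO arrays (log2, y axis), for 6 pairs of cytochrome c oxidase isoforms, SCD inhibitor left of DMSO. Cox6a2, Cox7a1 and Cox8b lie between -1.08 and -0.54 on the inhibitor arrays, Cox6a1 lies less far below DMSO, and the groups overlap for the other 8 genes.

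The remaining alternative isoforms did not pass either. Cox4i2, an isoform of lung that is linked to low oxygen, differed by -0.02 on the log2 scale, and Cox4i1, its widely expressed partner, by 0.05. The testis isoforms Cox6b2, Cox7b2 and Cox8c differed by -0.02, -0.00 and 0.03. Their mean levels of 4.11, 2.80 and 4.94 lay below the median of 5.59 over all genes. Small differences at such low levels do not show that these isoforms were unaffected. The common forms Cox6b1 and Cox7b differed by 0.01 and -0.02.

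No promoter sequence was available for Cox6a2 or Ndufb9, which both passed. Promoters are printed for Cox6a1, Atp5e, Cox7a1 and Cox8b, which passed and had a sequence. No gene that missed the test is printed, so these windows cannot show whether the letters follow the size of a difference. They are RefSeq sequences of GRCm38.p6, 250 bases before to 50 bases after the start, 5′ to 3′ on the gene's strand. Capitals mark matches to 5 motifs on either strand, and no matches overlap in these windows: GCGCA and GCGC with any 1 base between them for NRF1, CCGGAAG for ETS factors such as GABP, AANATGGCG for YY1, AAGGTCA for estrogen-related receptors and TATAAA for the TATA box. The windows are chr5:115348909-115349208 on the minus strand for Cox6a1, chr2:174464052-174464351 on the minus strand for Atp5e, chr7:30183921-30184220 on the plus strand for Cox7a1 and chr7:140900397-140900696 on the minus strand for Cox8b.
Cox6a1: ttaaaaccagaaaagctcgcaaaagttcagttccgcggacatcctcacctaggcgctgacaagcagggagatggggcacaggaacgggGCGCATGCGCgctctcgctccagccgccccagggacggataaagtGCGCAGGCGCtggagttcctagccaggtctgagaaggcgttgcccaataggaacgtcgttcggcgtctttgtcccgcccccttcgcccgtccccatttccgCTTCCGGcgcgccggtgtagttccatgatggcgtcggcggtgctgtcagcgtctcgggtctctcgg
Atp5e: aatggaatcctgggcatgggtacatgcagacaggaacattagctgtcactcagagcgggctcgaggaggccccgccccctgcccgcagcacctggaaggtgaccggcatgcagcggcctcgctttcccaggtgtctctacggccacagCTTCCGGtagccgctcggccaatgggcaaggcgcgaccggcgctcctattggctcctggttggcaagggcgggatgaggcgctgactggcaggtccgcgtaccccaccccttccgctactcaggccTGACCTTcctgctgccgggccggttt
Cox7a1: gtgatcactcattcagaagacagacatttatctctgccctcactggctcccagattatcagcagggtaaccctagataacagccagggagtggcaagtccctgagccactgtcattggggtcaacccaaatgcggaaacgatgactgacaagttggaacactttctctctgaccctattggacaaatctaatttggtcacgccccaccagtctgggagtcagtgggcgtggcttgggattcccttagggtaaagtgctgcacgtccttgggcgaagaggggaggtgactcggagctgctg
Cox8b: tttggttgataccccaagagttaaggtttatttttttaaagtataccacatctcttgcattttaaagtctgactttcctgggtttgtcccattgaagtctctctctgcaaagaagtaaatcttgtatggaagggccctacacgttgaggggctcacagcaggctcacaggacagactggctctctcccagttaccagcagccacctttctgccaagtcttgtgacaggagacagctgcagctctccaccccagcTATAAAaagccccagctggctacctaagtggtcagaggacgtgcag

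The Cox6a1 window held 32 CpG dinucleotides, 2 NRF1 matches and 1 ETS match. The Atp5e window held 22 CpG, 1 ETS match and 1 match to the estrogen-related receptor motif. The Cox7a1 window held 7 CpG and none of the 5 motifs, and the Cox8b window 2 CpG and 1 TATAAA match, which begins at base 5 after the annotated start and not before it. A match is a description of the letters and not a measured site.

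Over the set, 72 of 88 genes had a promoter in the table, 77 promoters in all. Their median was 20 CpG and 58.7% GC, against 7 CpG and 52.7% GC over 32851 promoters of all genes. The NRF1 motif stood in 26.0% of the members' promoters and 4.60% of all promoters. The ETS motif stood in 23.4% of the members' promoters and 8.86% of all promoters, and the YY1 motif in 13.0% of the members' promoters and 2.38% of all promoters. The receptor motif was found in 10.4% of the members' promoters and 4.72% of all promoters, and TATAAA in 10.4% of the members' promoters and 13.6% of all promoters. The share of each motif was not adjusted for base composition.

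In complex I, which takes electrons from NADH, 1 of 36 genes passed: Ndufb9, an accessory subunit of the membrane arm (Entrez 66218, chromosome 15, 58933801 to 58939516). It read 11.12, 11.10 and 11.16 with the inhibitor, against 11.34, 11.23, 11.33 and 11.28 in DMSO. The groups did not overlap, and the log2 difference was -0.16 (SE 0.0328, adjusted p = 0.0312 in limma), 1.12-fold lower. Without 1 array the call held only without DMSO 2 (adjusted p = 0.0223), and the 6 other such fits gave 0.0627 to 0.108. The 36 genes had a median difference of -0.02, with 15 above and 21 below 0.

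The 6 measured core subunits belong to the arm that carries the flavin and the iron-sulfur clusters, and none passed in limma or had an unadjusted p under 0.05. Ndufv1, the flavin-binding subunit, differed by -0.02 (SE 0.0375) and Ndufv2 by -0.03 (SE 0.0229). Ndufs1, the largest iron-sulfur subunit, differed by 0.01, Ndufs3 by 0.06, Ndufs7 by -0.02 and Ndufs8 by 0.08. A second row of Ndufs3, which did not stand for the gene, differed by 0.09 (SE 0.0315, unadjusted p = 0.0262 in limma).

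Accessory subunits of complex I spread more widely. Ndufa1, a small subunit of the membrane arm, read 7.27, 7.64 and 7.67 with the inhibitor, against 7.81, 7.99, 7.71 and 7.78 in DMSO (log2 -0.30, SE 0.112, adjusted p = 0.187 in limma). SCD inhibitor 1 was the lowest array, and the groups did not overlap. Ndufb3, also of the membrane arm, read 8.08, 7.99 and 8.25 with the inhibitor, against 7.72, 7.99, 7.83 and 7.97 in DMSO (log2 0.23, SE 0.0874, adjusted p = 0.188 in limma). SCD inhibitor 2 equalled the highest DMSO array.

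Other accessory subunits with an unadjusted p under 0.05 also missed the adjusted threshold. Ndufb11 differed by -0.17 (SE 0.0569), Ndufs4 by -0.11 (SE 0.04) and Ndufa3 by -0.08 (SE 0.03). Ndufa8 differed by 0.13 (SE 0.043) and Ndufb7 by 0.07 (SE 0.0236). The groups did not overlap for Ndufa8, nor for Ndufa6, which differed by -0.17 with a larger SE of 0.0835. They were also apart for Ndufa5, which read 7.97, 8.20 and 8.20 with the inhibitor, against 8.22, 8.24, 8.22 and 8.26 in DMSO (log2 -0.11, SE 0.0573) with an unadjusted p above 0.05.

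Ndufa4 carries a complex I name and is now placed with cytochrome c oxidase. It read 10.30, 10.46 and 10.50 with the inhibitor, against 10.30, 10.29, 10.10 and 10.20 in DMSO. SCD inhibitor 1 equalled DMSO 1, and the log2 difference of 0.20 (SE 0.0663) did not pass, at an adjusted p of 0.148 in limma. Its relative Ndufa4l2, which is induced by low oxygen, differed by -0.05 at a low mean level of 4.39.

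The 7 Ndufaf genes help to build complex I without being part of it, and none passed in limma or had an unadjusted p under 0.05. They lay between -0.11 (Ndufaf6) and 0.08 (Ndufaf1). Among 40 measured assembly factors of all complexes outside the set, 2 were higher and 3 lower in limma's test (12.5%, beside 8.00% of all genes), with a median of -0.02. An unadjusted p under 0.05 was found for 15 of the 40 (37.5%, beside 21.9% of all genes). The groups lay apart for 13, 5 higher and 8 lower (32.5%, beside 17.3% of all genes). Coa3, for cytochrome c oxidase, rose by 0.43 on the log2 scale (SE 0.0851) and Uqcc3, for complex III, by 0.28 (SE 0.0511). Lrpprc, which stabilises mitochondrial messenger RNAs, fell by 0.28 (SE 0.0365). Sdhaf3, for complex II, fell by 0.32 (SE 0.0605) and Coa5, for cytochrome c oxidase, by 0.24 (SE 0.0535, adjusted p = 0.0448 in limma). Lrpprc kept its call in all 7 fits without 1 array. In those fits Coa3 and Uqcc3 kept theirs in 1 each, Sdhaf3 in 2 and Coa5 in 0, with adjusted p up to 0.0898, 0.0815, 0.097 and 0.126 in that order of genes. The call of Coa5 also ended with array weights (adjusted p = 0.0634 in limma).

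Complex II, succinate dehydrogenase, links the tricarboxylic acid cycle to the chain, and none of its 4 genes passed in limma or had an unadjusted p under 0.05. Sdha, the flavin subunit, averaged 11.25 ± 0.0633 (SD, n = 3) with the inhibitor and 11.32 ± 0.0601 (SD, n = 4) in DMSO. Sdhb, the iron-sulfur subunit, differed by -0.01 on the log2 scale, and the membrane anchors Sdhc and Sdhd by -0.07 and 0.12. For Sdhd, SCD inhibitor 1 equalled the highest DMSO array (SE 0.0499, adjusted p = 0.233 in limma).

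In complex III, which hands electrons to cytochrome c, none of 8 genes passed in limma or had an unadjusted p under 0.05. Differences ran from -0.09 for Uqcr10 to 0.05 for Uqcrfs1, the Rieske iron-sulfur protein. These hold for the row that stood for each gene. A second row of Uqcr11, nearly as bright, differed by 0.18 (SE 0.0621, unadjusted p = 0.0241 in limma). A dimmer row of Uqcr10 differed by -0.26 (SE 0.1351). Uqcrc1, a core protein, differed by -0.07 and Cyc1, cytochrome c1, by -0.03. Uqcrc2, the other core protein, shares its rows with Pdzd9, and the brighter of these rows differed by 0.01 (SE 0.0177).

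Cycs, the somatic cytochrome c that carries electrons to complex IV, read 12.10, 12.09 and 12.14 with the inhibitor, against 12.15, 12.17, 12.19 and 12.15 in DMSO. The inhibitor arrays lay below the DMSO arrays by a narrow gap. The log2 difference of -0.05 (SE 0.0196) did not pass, at an adjusted p of 0.188 in limma.

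In complex IV 2 of 15 genes passed, Cox6a1 and Cox6a2. The left-out complex IV genes Cox7a1 and Cox8b, not counted here, passed as well (adjusted p = 0.00486 and 0.00179 in limma). Cox6c, a small nuclear subunit, read 12.16, 12.21 and 12.22 with the inhibitor, against 12.42, 12.30, 12.27 and 12.30 in DMSO. The groups did not overlap, and the difference of -0.13 (SE 0.0389) had an adjusted p of 0.121 in limma. Cox7a2l, which takes part in joining complexes III and IV into supercomplexes, differed by -0.15 (SE 0.057, adjusted p = 0.186 in limma). Again the groups did not overlap. Other rows of both genes differed by less. A second row of Cox6c, nearly as bright, differed by -0.04 (SE 0.0303, unadjusted p = 0.276 in limma). A dimmer row of Cox7a2l differed by -0.05 (SE 0.0593, unadjusted p = 0.443 in limma). Cox5a, a matrix-facing subunit, differed by 0.07.

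ATP synthase held the 1 member that was higher. Atp5e encodes the epsilon subunit of its central stalk (Entrez 67126, chromosome 2, 174461075 to 174464101). Its level was 8.63, 8.64 and 8.57 with the inhibitor, against 8.35, 8.25, 8.37 and 8.31 in DMSO. With no overlap between groups, Atp5e was 1.23-fold higher (log2 0.29, SE 0.0333, adjusted p = 0.00341 in limma). The call held in all 7 fits without 1 array, at adjusted p 0.00716 to 0.0226 in limma. It ended without both arrays numbered 1 (adjusted p = 0.0516).

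The 4 other measured subunits of the catalytic head and central stalk did not pass. Atp5b, the catalytic beta subunit, averaged 12.53 ± 0.00338 (SD, n = 3) with the inhibitor and 12.54 ± 0.00488 (SD, n = 4) in DMSO, with a 95% interval of the difference from -0.04 to 0.03. Atp5a1, the alpha subunit, differed by 0.01, Atp5c1, the gamma subunit, by 0.07 and Atp5d, the delta subunit, by 0.04. Atp5g1, Atp5g2 and Atp5g3, which encode the same mature c-ring protein, differed by -0.06, -0.02 and 0.02.

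Of the 17 ATP synthase genes 12 lay above 0 and 5 below, with a median of 0.02. Atp5l, subunit g of the membrane part, read 9.64, 9.89 and 9.62 with the inhibitor, against 9.59, 9.50, 9.49 and 9.53 in DMSO (log2 0.19, SE 0.068, adjusted p = 0.174 in limma). The groups did not overlap. All 6 rows with its symbol differed by 0.14 to 0.19, and rows of 1 gene are not independent. Atp5pb, subunit b of the peripheral stalk, read 10.77, 10.89 and 11.03 with the inhibitor, against 10.64, 10.73, 10.75 and 10.76 in DMSO (log2 0.17, SE 0.0624, adjusted p = 0.174 in limma). Here too the groups did not overlap, by a gap between SCD inhibitor 1 and DMSO 4 that is smaller than the spread within either group.

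Averaged by complex, the groups separated for ATP synthase, complex IV and the single gene of cytochrome c. The mean over the 17 ATP synthase genes was 10.70, 10.73 and 10.73 with the inhibitor, against 10.69, 10.66, 10.66 and 10.66 in DMSO. Without Atp5e the mean was 10.83, 10.86 and 10.86 with the inhibitor, against 10.84, 10.81, 10.80 and 10.81 in DMSO, so that SCD inhibitor 1 lay below DMSO 1. The mean over the 15 complex IV genes was 8.73, 8.72 and 8.74 with the inhibitor, against 8.82, 8.78, 8.83 and 8.78 in DMSO. Without Cox6a2 it ran from 8.90 to 8.91 with the inhibitor and 8.92 to 8.96 in DMSO, with no overlap.

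The mean over all 18820 genes was 6.08, 6.12 and 6.12 with the inhibitor, against 6.11, 6.11, 6.11 and 6.12 in DMSO, lowest on SCD inhibitor 1. With each array's mean over all genes taken off, ATP synthase without Atp5e ran from 4.73 to 4.75 with the inhibitor and 4.69 to 4.73 in DMSO, without overlap. Complex IV then ran from 2.60 to 2.65 with the inhibitor and 2.66 to 2.72 in DMSO, also without overlap, while its 14 genes without Cox6a2 overlapped, at 2.79 to 2.83 with the inhibitor and 2.80 to 2.85 in DMSO. Cytochrome c overlapped as well, with SCD inhibitor 1 at 6.027 and DMSO 4 at 6.026. Genes of a complex are not replicates, so these means carry no test.

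**Figure D4:**
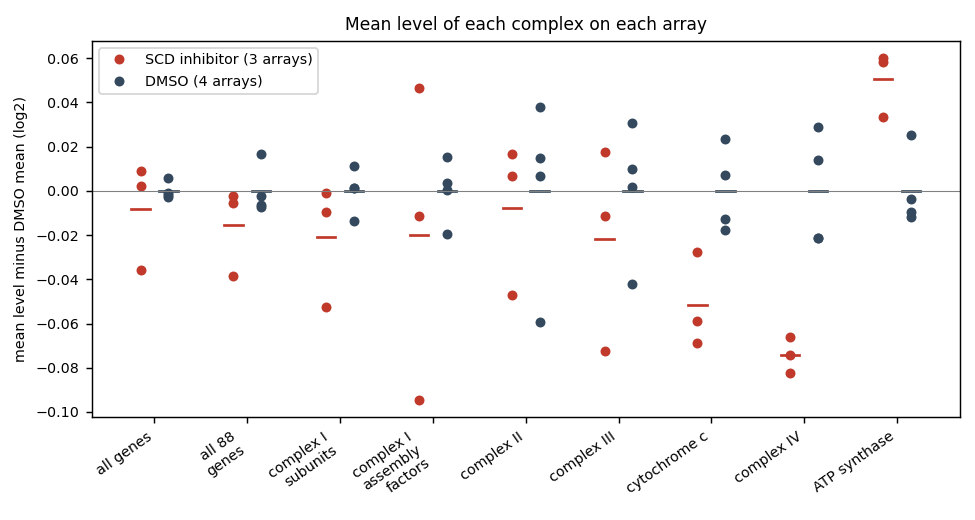
Mean log2 level of the genes of each complex on each array, minus the mean of the DMSO arrays (y axis); points are arrays, SCD inhibitor left of DMSO, and lines are group means. The inhibitor arrays lie above the DMSO arrays for ATP synthase and below them for complex IV and cytochrome c, and the groups overlap for the other sets shown.

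**Figure D5:**
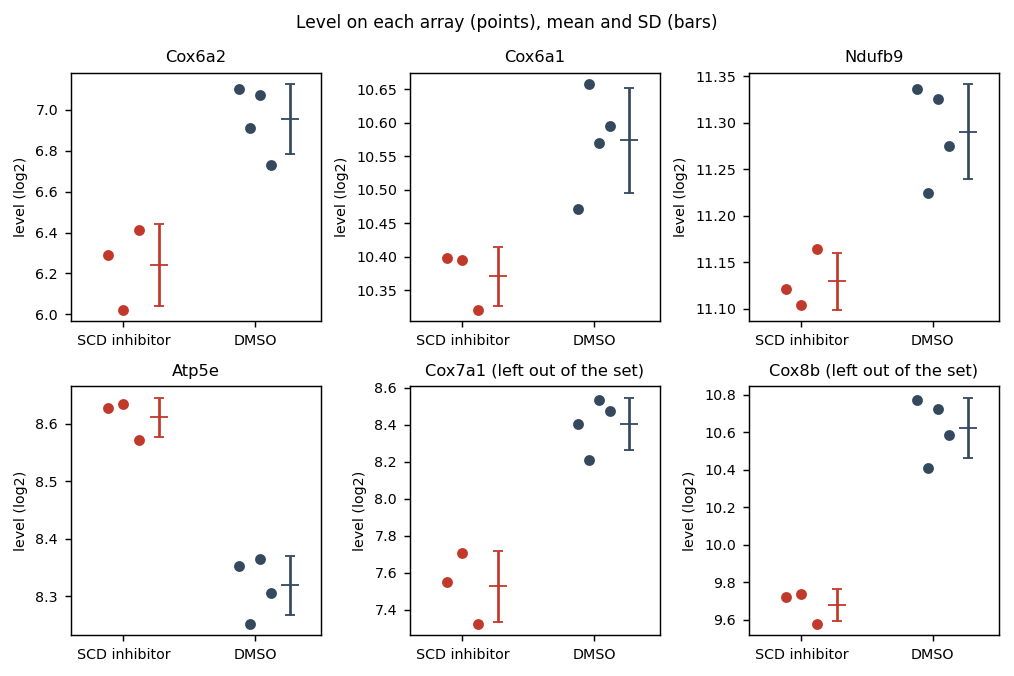
Level (log2, y axis) on each array of the 4 genes of the set that passed and of the 2 left-out genes, SCD inhibitor (3 arrays) left of DMSO (4 arrays); bars are the mean and SD. In each panel the groups do not overlap, with Atp5e higher and the other 5 lower with the inhibitor.

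Transcriptional regulators of respiratory genes were set beside the set, and 1 of 16 measured passed (6.25%, beside 8.00% of all genes). Ppargc1a, the coactivator PGC-1α, read 7.18, 7.04 and 7.13 with the inhibitor, against 8.47, 8.74, 8.45 and 8.61 in DMSO, 2.74-fold lower (SE 0.0752 on the log2 scale, adjusted p = 0.000129 in limma). Its relatives Ppargc1b and Pprc1 differed by 0.05 and 0.17 and did not pass. The DNA-binding factors Nrf1, Gabpa, Esrra and Yy1 differed by 0.09, -0.05, 0.02 and 0.09, and Tfam, which packages mitochondrial DNA, by -0.19 (SE 0.114), none past the test. Tfb2m (-0.10, SE 0.0282) and Polrmt (0.07, SE 0.0267) did not pass either. Pprc1, Tfb2m and Polrmt had an unadjusted p under 0.05 in limma and groups that lay apart, as Ppargc1a had.

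Of 20 genes for other mitochondrial proteins, 1 was higher and 1 lower, while 8.00% of all genes passed in either direction. An unadjusted p under 0.05 was found for 4 of the 20, beside 21.9% of all genes. The groups lay apart for 3 of the 20, beside 17.3% of all genes. Mfn2, a fusion protein of the outer membrane, rose by 0.21 on the log2 scale (SE 0.0223) and Hspa9, a matrix chaperone, fell by 0.23 (SE 0.0379). The call of Hspa9 ended without DMSO 4 (adjusted p = 0.0515 in limma) and without SCD inhibitor 3 (0.0619). The median of the 20 was -0.01, with the outer membrane pore Vdac1 at -0.01 and the import receptor Tomm20 at 0.05.

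Marker genes were read for the cell type, which the tissue label gives as pre-adipocyte. The 8 adipocyte markers had mean levels of 10.26 to 12.71, and none passed in limma, with 2 (Plin1 and Pparg) at an unadjusted p under 0.05. The summed level of the 8 adipocyte markers, as the log2 of the sum of linear values, was 15.04 to 15.07 with the inhibitor and 15.03 to 15.07 in DMSO. Of 4 measured pre-adipocyte markers, Pdgfra rose by 0.89 on the log2 scale (SE 0.093), Pdgfrb by 0.51 (SE 0.0683) and Dlk1 by 0.32 (SE 0.0705), while Thy1 differed by 0.29 (SE 0.096) and did not pass. Dlk1 kept its call in 1 of 7 fits without 1 array (adjusted p up to 0.129 in limma), Pdgfra and Pdgfrb in all 7. The summed level of these 4 was 11.76 to 11.80 with the inhibitor and 11.20 to 11.37 in DMSO, and its part in the results above was not tested. In bulk samples fewer cells of a type and less RNA per cell cannot be told apart.

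The 5 leukocyte markers had mean levels of 3.12 to 5.94, with a summed level of 6.79 to 6.87 with the inhibitor and 6.85 to 6.92 in DMSO. The 4 endothelial markers summed to 5.52 to 5.59 with the inhibitor and 5.54 to 5.63 in DMSO. None of these 9 genes, nor Ucp1, the uncoupling protein of brown fat (log2 difference -0.01), passed in limma or had an unadjusted p under 0.05. Ucp1 had a low mean level of 3.46, beside a median of 5.59 over all genes.

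Several array rows can carry 1 symbol, and the row with the highest mean stood for each gene. Of the 88 genes 24 had more than 1 row, 58 rows in all, and the rows of 3 genes differed in sign. The range between the rows of a gene had a median of 0.05 and was largest in Cycs, at 0.21. Of 9 rows that name such a gene together with another one, among them those of Cox7c and Ndufa13, none had an unadjusted p under 0.05 in limma.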

How the data were processed

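The values are log2 expression levels per transcript cluster, as deposited by the authors. The submitters' processing notes name RMA without a version, and the log2 unit was taken from the range of the deposited values. Per the labels' protocols, 100 ng of total RNA was labelled per array. Rows with 1 symbol in the platform annotation were kept (21218 of 28996), and the row with the highest mean stood for each of 18820 genes. All 88 members matched RefSeq (GRCm38.p6) by Entrez number. The 7 arrays were fitted with limma 3.58.1 in R 4.3.3 (lmFit and eBayes, 5 residual and 1.68 prior degrees of freedom). The adjustment ran over all genes, calls were made under 0.05, and dim genes were kept. The fit was tested on simulated data. Precision is limited by the number of arrays. RMA can compress changes at both ends of the scale.

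Members and lists were chosen with earlier results of these data known. The naming rule took members that passed or had an unadjusted p under 0.05, the 2 most positive and 2 most negative of each complex, core, catalytic, c-ring and isoform genes, and the 3 brightest and 3 dimmest members. From other lists it took genes that passed, or the 2 with the smallest p. Other genes in the text were chosen after their values were seen. The fit was repeated with 16 other settings and, after the data were seen, 1 more.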

Additional observations from a re-analysis of the deposited data

Results flagged for a closer look

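The 77 genes taken by the naming rule, members and others, and 11 array means were checked in the 4 DMSO arrays. Of these 88 values 13 had 1 array farther from the other 3 than Dixon's critical value allows. Chance gives about 1 in 20, but only for values without ties. For Atp5b, Atp5g2 and Cox5a the other 3 arrays read the same, so any gap, however small, gives a flag. The number of flags can therefore not be set against 1 in 20. The 3 inhibitor arrays were too few for this check. DMSO 1 was the array apart in 10 of the 13. It lay above the others for Atp5b (12.543, others 12.53), Atp5g1 (11.877, others 11.68 to 11.71), Atp5g2 (11.201, others 11.11), Ndufs7 (11.557, others 11.50 to 11.51) and Ndufv2 (11.477, others 11.41 to 11.42). It also lay above them for Uqcrq (10.889, others 10.74 to 10.75), Cox7b2 (2.85, others 2.77 to 2.78) and the endothelial markers Cdh5 (3.925, others 3.90) and Pecam1 (3.825, others 3.69 to 3.71), and below them for Cox5a (8.549, others 8.67). DMSO 2 lay below the others for Cox4i1 (10.535, others 10.66 to 10.68), Ndufaf4 (7.422, others 7.48 to 7.49) and the leukocyte marker Csf1r (4.068, others 4.18 to 4.20). None of these 13 genes passed limma's comparison of the groups, nor had any an unadjusted p under 0.05.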

How the results depend on the processing

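With array weights, an intensity trend, a robust prior, or the dimmest 25% or 50% of genes dropped, the same 4 genes passed, 1 higher and 3 lower. Cox6a1 lost its call after a further quantile normalization (adjusted p = 0.0513 in limma) and with the mean of all rows per gene. Centring each array on its median moved the median over all genes to 0.01 and that over the members to 0.00281. It gave 3 higher members, as Ndufa4 (adjusted p = 0.0338 in limma) and Atp5pb (0.0315) joined, and 2 lower, as Ndufb9 lost its call (0.0611). Leaving out 1 array gave 0 to 2 lower members and 1 higher in each fit, and Ndufb11 passed without SCD inhibitor 3 (adjusted p = 0.046 in limma). Without both arrays numbered 1, tried after the data were seen, 0 were higher and 0 lower in limma, with 17 members at an unadjusted p under 0.05 and a median of 0.00944. Adjusted p there was 0.13 for Cox6a2, 0.164 for Ndufb9, 0.0585 for Cox6a1, 0.0818 for Cox7a1 and 0.0384 for Cox8b. The replicate number as a block left 0 higher and 1 lower, Cox6a2 (adjusted p = 0.0208 in limma), with 8 members at an unadjusted p under 0.05, and Atp5e (0.0624) and Cox7a1 (0.0834) lost their calls. DMSO 4 has no inhibitor array of its number, so it did not add to the differences of the block fit. Cox6a2 differed by -0.785 there and also without DMSO 4. Same-numbered arrays deviated together with weak positive correlations of 0.174, 0.138 and 0.08. The main fit did not take the numbers as pairs, and whether they mark a shared batch was not tested. The intervals within 1.25-fold numbered 72 to 80 over all settings. Over all genes 1505 passed, against 2326 with centring, 980 without DMSO 4, 949 without SCD inhibitor 3, 896 with the block and 808 without both arrays numbered 1. No call reversed its direction in any setting, and the cause of the lost calls was not tested.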
